A study of Mus musculus with 2 samples.

Results

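A set of 8 genes of gamma-delta T cells and of interleukin-17 (IL-17) production were followed in the leukocytes of mouse gliomas. The members were Trdc, Trdv4, Tcrg-C1, Tcrg-C2, Il17a, Cd163l1, Blk and Il23r, taken by symbol from the 31053 genes of the matrices, and all 8 were present in both. They were described in barcodes with at least 1000 UMIs (unique molecular identifiers, 1 per captured transcript) and at most 17% of UMIs from mitochondrial genes. Of 997 T and NK cells among these barcodes, 291 held a UMI of at least 1 member, which was 231 of 710 in WT and 60 of 287 in CD169-DTR.

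Leukocytes positive for CD45.2 were taken from the brains of adult male C57BL/6 mice 10 days after intracranial injection of 100000 GL261 cells, a mouse glioma line, and their transcripts were counted by droplet single-cell RNA sequencing. The WT library came from CD169-DTR wild type mice and the CD169-DTR library from hetero mice, whose single modified Siglec1 copy carries the diphtheria toxin receptor, so that toxin removes cells that use Siglec1 (CD169, a macrophage lectin). Diphtheria toxin was given to both groups, at day -1 and at day 4 counted from the tumor injection. Cells of the mice of a group were combined in 1 library each, so there was no replicate of either genotype, no test between genotypes was possible, and every interval given here is a 95% interval for counting error only. UMIs of 1 cell are not independent, so that the spread between cells is wider than the intervals of summed UMIs show.

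Gamma-delta T cells carry a T cell receptor of a gamma and a delta chain in place of the alpha and beta chains of conventional T cells. In mice, 1 lineage of them leaves the thymus already committed to IL-17, and another produces interferon-gamma. IL-17 producers live in barrier tissues and in the membranes around the brain and respond to IL-1 and IL-23 without the need of antigen, while NK cells can transcribe the delta constant gene without carrying the receptor.

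Trdc (ENSMUSG00000104876, chr14:54142851-54148868, plus strand, GRCm38), the constant part of the delta chain, and Trdv4 (ENSMUSG00000076867, chr14:54074905-54075515, plus strand), a delta variable gene, lie in the same locus. Tcrg-C1 (ENSMUSG00000076749, chr13:19214103-19217024, plus strand) and Tcrg-C2 (ENSMUSG00000076752, chr13:19304649-19307551, minus strand) are constant parts of the gamma chain in opposite orientations. Il17a (ENSMUSG00000025929, chr1:20730905-20734496, plus strand) is the cytokine. Cd163l1 (ENSMUSG00000025461, chr7:140218267-140231145, plus strand) is a scavenger receptor, known as a marker of IL-17 gamma-delta T cells. Blk (ENSMUSG00000014453, chr14:63372836-63417037, minus strand) is a kinase of the Src family used by B cells and by these T cells, and Il23r (ENSMUSG00000049093, chr6:67422932-67491855, minus strand) is the receptor subunit for IL-23.

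The gamma constant genes Tcrg-C1 and Tcrg-C2 are near copies of each other over a part of their length, which bears on every value of the 2 genes. The 2 stretches printed here are the first 120 of the 140 coding bases in the last coding exon of each gene. Bases that differ are in capitals (Tcrg-C1 chr13:19216476-19216595, plus strand, and Tcrg-C2 chr13:19305083-19305202, minus strand, both GRCm38).
Tcrg-C1: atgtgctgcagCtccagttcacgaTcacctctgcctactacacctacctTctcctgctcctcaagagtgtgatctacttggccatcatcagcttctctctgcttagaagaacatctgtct
Tcrg-C2: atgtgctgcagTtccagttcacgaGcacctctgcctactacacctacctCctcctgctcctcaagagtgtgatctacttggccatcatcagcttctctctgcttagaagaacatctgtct
The stretches differed at 3 bases, and over the 140 coding bases of the last exon 4 bases differed, an identity of 97.1%. Of the stretches of 60 bases in the last 400 bases of Tcrg-C1, the end from which a 3' assay takes its reads, 15.2% were also present in Tcrg-C2, against 0.59% in Tcrg-C3 and 0 in Tcrg-C4. Over the whole Tcrg-C1 transcript 11.9% were present in Tcrg-C2. Of those in the last 400 bases of Tcrg-C3, 30.5% were present in Tcrg-C1. Reads that fall in a shared stretch cannot be given to 1 gene, so the pair was also counted together, as Tcrg-C.

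The promoters of the cytokine and of its inducing receptor carry the hexamer AGGTCA, letters read by several nuclear receptors, Rora among them. They are shown here (RefSeq, GRCm38.p6) as the 250 bases before the start site, with matches on either strand in capitals.
Il17a: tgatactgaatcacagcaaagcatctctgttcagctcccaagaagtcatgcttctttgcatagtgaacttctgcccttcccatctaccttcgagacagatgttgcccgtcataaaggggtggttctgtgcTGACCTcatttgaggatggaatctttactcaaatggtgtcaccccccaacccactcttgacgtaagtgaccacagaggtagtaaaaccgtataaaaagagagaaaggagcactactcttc
Il23r: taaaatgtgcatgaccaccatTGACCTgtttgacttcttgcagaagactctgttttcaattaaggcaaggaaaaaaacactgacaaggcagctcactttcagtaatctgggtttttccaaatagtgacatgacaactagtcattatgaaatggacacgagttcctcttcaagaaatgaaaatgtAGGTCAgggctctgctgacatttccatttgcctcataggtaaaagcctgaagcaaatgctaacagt
The Il17a window (chr1:20730655-20730904, plus strand) held 1 match and the Il23r window (chr6:67491856-67492105, minus strand) held 2. Cd163l1, the third member with an entry, held 0 in its window. Of 32851 promoters of the same length, 14.0% held the hexamer, so a match by itself is common.

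The libraries were of similar depth. WT held 101808996 UMIs and 10107 kept barcodes, and CD169-DTR held 84065489 UMIs and 7604 kept barcodes, with 21 barcodes kept in both libraries and none of these a T or NK cell. Siglec1, the targeted gene, stood at 17.8 CPM in WT (16.9 to 18.6; CPM are UMIs of a gene per 1000000 UMIs of the summed cells) and at 5.46 in CD169-DTR (4.95 to 6.00), lower in the library labelled CD169-DTR. T and NK cells made up 7.02% of kept barcodes in WT and 3.77% in CD169-DTR, with median depths of 5673 and 6365 UMIs. They were found by clustering without the members and without other gamma and delta receptor genes, and 2 sub-clusters that mixed T cell genes with microglia or granulocyte genes, 96 WT and 15 CD169-DTR barcodes, were left out.

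The members were genes of T and NK cells, with Blk as the exception. T and NK cells held 86.3% of all Trdc UMIs, 87.3% of Trdv4, 86.6% of Tcrg-C1, 88.3% of Tcrg-C2, 85.7% of Cd163l1, 79.4% of Il17a and 71.4% of Il23r. For Blk the share was 26.9%, since B cells also used it. Blk was held by 31 of 73 WT and 57 of 124 CD169-DTR B cells. Microglia, which should lack Trdc, gave the background from free RNA. There 5 of 4800 WT cells held a Trdc UMI (0.104%, median depth 7549 UMIs), against 157 of 710 T and NK cells (22.1%).

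**Figure D1:**
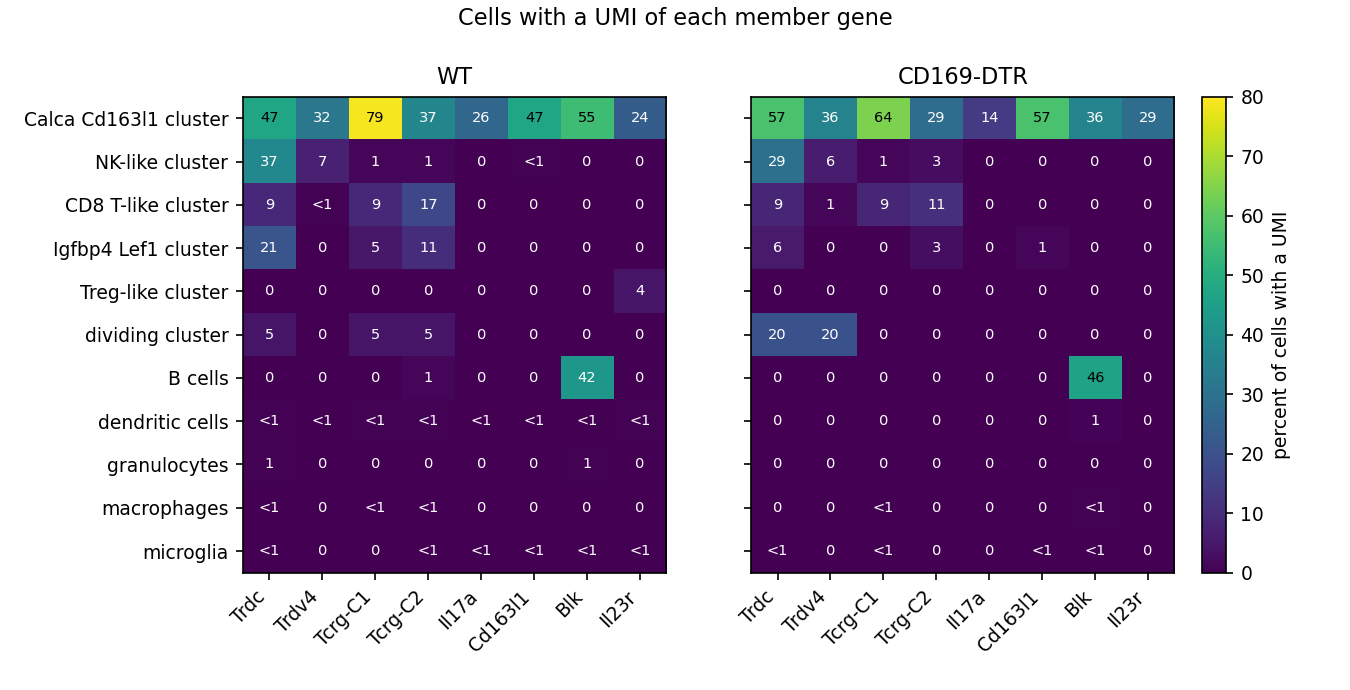
Percent of cells with at least 1 UMI of each member (columns) in T and NK cell clusters and other cell types (rows), for WT (left) and CD169-DTR (right). The Calca Cd163l1 cluster held every member in both libraries, the NK-like cluster held mainly Trdc, and B cells held Blk.

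Between clusters, the delta and gamma constant genes followed different orders. Trdc was highest in a cluster led by Calca and Cd163l1, at 965 CPM in WT (860 to 1080) and 1296 in CD169-DTR (1081 to 1541). In WT the Igfbp4 Lef1 cluster followed at 361 (287 to 447) and the CD8 T-like cluster at 134 (117 to 153), whose intervals did not overlap. The shallow NK-like cluster, with 9 Trdc UMIs in 50 cells and a median depth of 1625 UMIs, stood at 105 (48.1 to 200), and its interval overlapped those of the CD8 T-like cluster and of the NK-like cluster at 95.9 (81.5 to 112). In CD169-DTR the CD8 T-like cluster stood at 121 (96.4 to 150), and the NK-like and Igfbp4 Lef1 clusters, at 62.5 (43.5 to 86.9) and 54.1 (34.7 to 80.5), did not differ beyond counting error. Tcrg-C2 was at 147 in the Calca Cd163l1 cluster and 69.8 in the CD8 T-like cluster of WT, but at 3.67 (1.35 to 7.98) in the NK-like cluster. Tcrg-C1 likewise fell from 535 in the Calca Cd163l1 cluster to 25.9 and 7.33 in the CD8 T-like and NK-like clusters of WT. Thus the NK-like cluster held Trdc in many cells, with little of either gamma constant gene.

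The Calca Cd163l1 cluster had 38 WT and 14 CD169-DTR cells, 5.35% (3.81 to 7.27) and 4.88% (2.69 to 8.05) of T and NK cells. Its 10 leading genes held 3 genes of the type 17 list and 3 of type 2 innate lymphoid cells, so it was given no cell type name. Cd163l1 was among those leading genes although the members were kept out of the clustering. Of its 26 cells without Trdc, 6 held Il13, with 307 UMIs among them, and 20 held Gata3, the cytokine and the transcription factor of type 2 lymphocytes. Its other 26 cells, all with Trdc, are described next.

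Detection of the type 17 members went together with Tcrg-C1, and most Trdc cells held neither gamma constant gene. Of 201 Trdc cells in both libraries, 61 also held Tcrg-C1 or Tcrg-C2. Of 29 Cd163l1 cells, 28 held Trdc and 26 held Tcrg-C1, where Trdc was detected in 20.2% and Tcrg-C1 in 7.82% of all T and NK cells. All 12 Il17a cells held Tcrg-C1, 10 held Trdc, 10 held Cd163l1 and 10 held Blk. Of 26 Blk cells, 22 held Tcrg-C1 and 18 held Cd163l1, and of 15 Il23r cells 10 held Tcrg-C1. Trdv4 was spread otherwise, with 26 of 45 Trdv4 cells holding Trdc and 16 holding Tcrg-C1. After each cell was thinned to 3500 UMIs, which left 597 WT and 264 CD169-DTR cells and put aside 113 and 23 shallower ones, 26 of 27 Cd163l1 cells held Trdc and 47 of 148 Trdc cells held Tcrg-C1 or Tcrg-C2. At that depth 6 of 9 Il17a cells held Tcrg-C1, while 7 held Trdc and 7 held Cd163l1, so the full overlap of Il17a with Tcrg-C1 depended on depth. Of 20 Blk cells, 14 then held Tcrg-C1.

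Cells were then grouped by which members they held, where type 17 stands for any of Il17a, Cd163l1, Blk and Il23r. This grouping was made after the values were seen and serves as description. Cells with Trdc, Tcrg-C and type 17 numbered 18 in WT (2.54%, 1.51 to 3.98) and 8 in CD169-DTR (2.79%, 1.21 to 5.42), and all 26 lay in the Calca Cd163l1 cluster. Cells with Trdc and Tcrg-C but no type 17 member numbered 27 (3.80%, 2.52 to 5.48) and 8 (2.79%, 1.21 to 5.42). Cells with Trdc and no Tcrg-C numbered 112 (15.8%, 13.2 to 18.7) and 28 (9.76%, 6.58 to 13.8), and 122 of these 140 lay in the NK-like cluster. Tcrg-C without Trdc or type 17 was held by 44 and 12 cells, Tcrg-C and type 17 without Trdc by 8 WT cells and 0 CD169-DTR cells, and type 17 alone by 6 and 2.

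**Figure D2:**
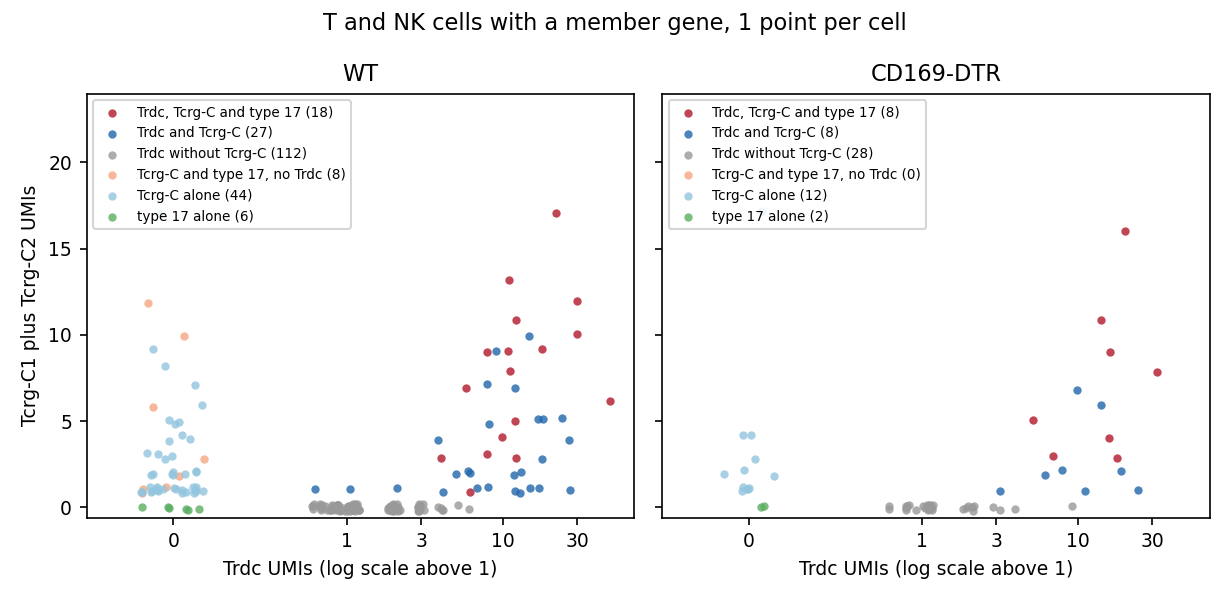
Trdc UMIs (horizontal, log scale above 1) against the sum of Tcrg-C1 and Tcrg-C2 UMIs (vertical) in each T or NK cell that held one of the members used for the grouping, with points moved slightly at random and counts of cells in the key. Cells with a type 17 member and Trdc reached 49 Trdc UMIs in WT and 32 in CD169-DTR, while cells with Trdc and no Tcrg-C lay mostly at 1 UMI.

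Trdc UMIs per cell had similar medians over both libraries in the 2 groups with Tcrg-C, 12 and 11, and were mostly lower in the group without it. Cells with Trdc, Tcrg-C and type 17 held a median of 11.5 Trdc UMIs in WT (4 to 49) and 16 in CD169-DTR (5 to 32). Cells with Trdc and Tcrg-C held medians of 12 (1 to 27) and 10.5 (3 to 24). Cells with Trdc and no Tcrg-C held a median of 1 in each library (WT 1 to 6, CD169-DTR 1 to 9), so that the ranges overlapped. The median depths over both libraries were 6006.5, 6838 and 5872.5 UMIs for the 3 groups. Scaled to all UMIs, Trdc was higher in the cells with type 17 members, at 2826 CPM in WT and 2446 in CD169-DTR. Cells with Trdc and Tcrg-C alone stood at 1568 and 1493.

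The 122 NK-like cells with Trdc and no Tcrg-C were set beside the 217 NK-like cells that held no Trdc, no Tcrg-C and no type 17 member. Of 10 NK markers 0 differed by at least 2-fold, which is near the background, since 1.08% of 7321 genes were higher and 2.76% lower by that much. Ncr1, the activating receptor NKp46, stood at 461 and 468 CPM, and Gzma at 7054 and 6852. The genes of the T cell receptor complex Cd3d and Cd3g were lower in the Trdc cells, at 7.57 against 39.0 and 3.79 against 37.5 CPM (log2 differences of -2.36, -3.88 to -1.14, and -3.31, -5.63 to -1.68). Of the type 17 list, 7 of 15 genes with at least 20 UMIs were lower too, among them Tmem176b at 5.05 against 64.3. That these cells held no Tcrg-C is set by the grouping.

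The 26 cells with Trdc, Tcrg-C and type 17 and the 35 with Trdc and Tcrg-C alone were those with UMIs of both constant genes. They differed widely. Of the 35, 25 lay in the CD8 T-like cluster, 7 in the Igfbp4 Lef1 cluster, 2 in the NK-like cluster and 1 among dividing cells. The 26 all lay in the Calca Cd163l1 cluster, so the comparison is also one between clusters. Of the type 17 list, which holds transcription factors, receptors and surface genes known from IL-17 cells and none of the members, 19 of 30 genes had at least 20 UMIs over both groups, and 18 were at least 2-fold higher in the type 17 cells and 0 lower, with a median log2 difference of 3.88 (genes at 0 set to 3 counts) against 0.15 over all genes. Of all 2911 genes with that many UMIs, 12.4% were at least 2-fold higher and 7.21% lower. Serpinb1a, a protease inhibitor, held 111 UMIs in 23 of 26 type 17 cells and 1 UMI in the 35 others. The ion channel genes Tmem176a and Tmem176b stood at 1285 against 11.5 and 1661 against 23.0 CPM. Receptors for the cytokines that drive IL-17 were also higher. Il1r1, the IL-1 receptor, held 27 UMIs in 16 type 17 cells and 0 in the others, at least 14.7-fold higher. The IL-7 receptor Il7r stood at 959 against 219 (log2 difference 2.13, 1.68 to 2.60).

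Transcription factors of the IL-17 lineage were higher in the type 17 cells too. Maf held 100 against 25 UMIs (log2 difference 2.71, 2.06 to 3.40) and Rora 73 against 11 (3.44, 2.52 to 4.50). Sox13 held 10 UMIs in 9 type 17 cells and 0 in the others, too few for the count of 19 but in the type 17 cells alone. Csf2, the growth factor GM-CSF, held 69 UMIs in 6 type 17 cells and 0 in the others. Ahr, a receptor for environmental ligands, was the list gene that did not reach 2-fold, at 62.7 against 119 CPM (log2 difference -0.92, -2.12 to 0.14), and Sox4, with 0 against 17 UMIs in 3 cells, lay the other way.

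**Figure D3:**
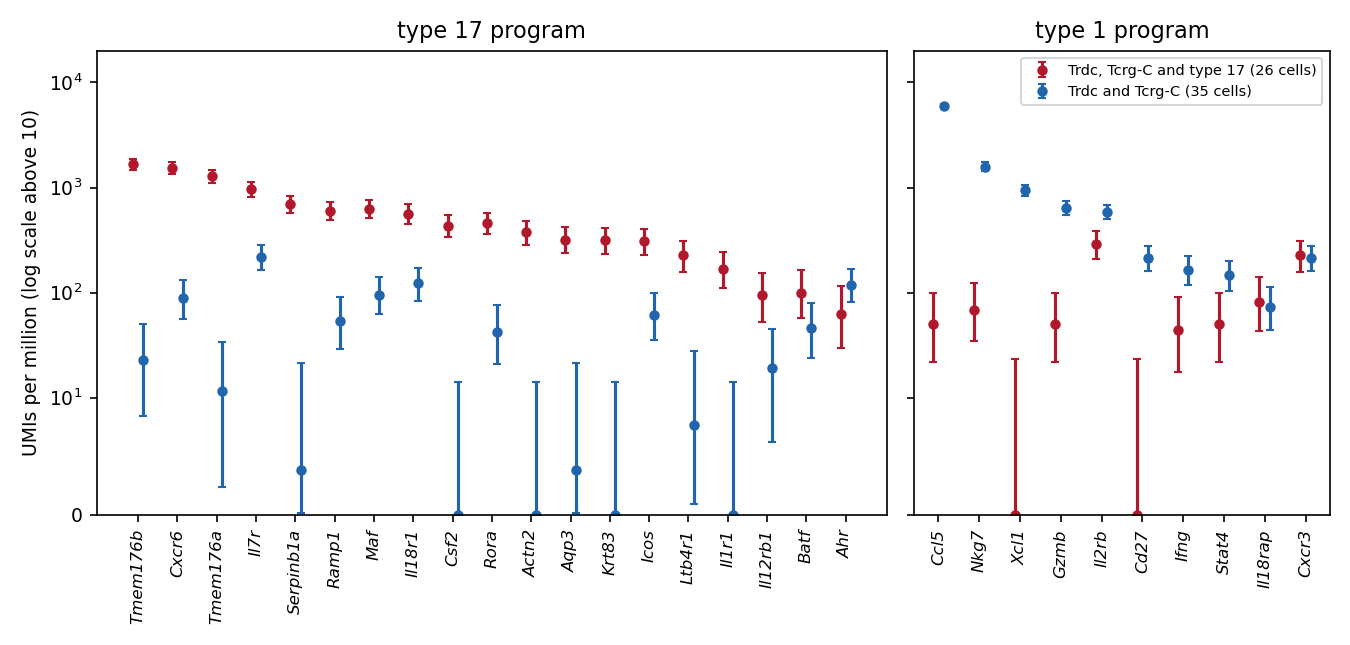
Levels of type 17 list genes (left) and type 1 list genes (right) with at least 20 UMIs, in CPM on an axis that is logarithmic above 10, for cells with Trdc, Tcrg-C and type 17 (red) and cells with Trdc and Tcrg-C (blue), with exact Poisson 95% intervals. The red points lie above the blue ones for 18 of 19 type 17 genes, and the blue ones lie at least 2-fold above for 8 of 10 type 1 genes.

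Genes of interferon-gamma and killer programs lay on the other side. Of 10 measured type 1 genes, 8 were at least 2-fold lower in the type 17 cells and 0 higher (median log2 difference -2.71), and all 5 NK list genes with enough UMIs were lower. Over all 2911 genes, 7.21% were lower and 12.4% higher. The chemokine Ccl5 held 8 UMIs against 1558 (log2 difference -6.90, -8.11 to -5.92). Nkg7, a cytotoxic granule gene, held 11 against 413. The chemokine Xcl1 held 0 against 245 and Cd27, a co-stimulatory receptor known to mark interferon-gamma gamma-delta cells, 0 against 56. Ifng itself held 7 UMIs in 2 cells against 43 in 16. Cxcr3 and Il18rap did not separate the groups, with log2 differences of 0.07 (-0.58 to 0.70) and 0.16 (-0.98 to 1.25).

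Set against all other T and NK cells, the type 17 group was higher by at least 2-fold in 21 of 26 type 17 genes and lower in 0. Over all 9933 genes, 13.1% were higher and 7.9% lower. Of 8 cell cycle genes 6 were lower, where the other cells included a cluster of 27 dividing cells. The cells with Trdc and Tcrg-C were higher in 1 of those 26 type 17 genes and lower in 9, where 5.23% of genes were higher and 10.0% lower, and of 13 type 1 genes 0 were higher and 2 lower. The median log2 difference of their type 1 genes was 0.01, beside -0.01 over all genes.

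Both groups held transcripts of the T cell receptor complex. Cd3d stood at 1103 and 1040 CPM in the 2 groups, and Cd3g at 1867 and 786. The alpha constant gene Trac was low in both, at 43.9 and 49.9. The beta constant gene Trbc2 was held by 25 of 26 and 34 of 35 cells. The receptor genes in use differed, since Trdv4 held 20 UMIs in 15 type 17 cells and 1 UMI in the others, and the gamma variable gene Tcrg-V6 held 8 UMIs in 7 type 17 cells and 0 in the others. Tcrg-C4 was held by 18 and 17 cells.

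Of the genes next to the receptor, 6 of 12 had at least 20 UMIs, and 1 was at least 2-fold higher in the type 17 cells and 2 lower. Over all 2911 genes, 12.4% were higher and 7.21% lower, and 6 genes are too few to set against these shares. Lck, the usual kinase of the T cell receptor, held 3 UMIs in 2 of 26 type 17 cells against 85 UMIs in 34 of 35 others (log2 difference -4.12, -6.42 to -2.52). Txk stood at 163 against 334 CPM, and Fyn and Zap70 did not reach 2-fold. Lyn, too low for the count, held 0 against 14 UMIs. The adaptor Lat was the higher gene, at 445 against 84.4 CPM (2.40, 1.69 to 3.16). Blk held 52 UMIs in the type 17 cells and 0 in the others, a difference set by the grouping.

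Some homing genes separated the groups too. Of 14 genes of the homing list 11 had at least 20 UMIs, and 4 were at least 2-fold higher in the type 17 cells and 2 lower. Over all 2911 genes, 12.4% were higher and 7.21% lower. The median log2 difference of the list was 0.07, against 0.15 over all genes. The chemokine receptors Cxcr6 and Ccr2 stood at 1535 against 88.2 and 551 against 42.2 CPM in type 17 cells and the others. S1pr1, which leads cells out of lymph nodes, held 1 against 29 UMIs. Cells of the type 17 group also held more of the genes that respond to tissue handling, 7 of 10 being at least 2-fold higher, where 12.4% of 2911 genes were. The summed level of the handling genes was 15928 CPM in WT and 15361 in CD169-DTR, against 7562 and 9539 in the others. The part of handling in the differences was not tested. Summed microglia markers were at 289 and 459 against 183 and 283 CPM, and granulocyte markers were at 0 in all type 17 cells. Summed macrophage markers were lower in type 17 cells, at 578 CPM in WT and 669 in CD169-DTR against 2431 and 1257 in the others. Of the 9 genes of that list, Ly6c2 held 2 against 397 UMIs, Plac8 4 against 149 and Ccr2 88 against 11, while Vcan, Chil3, F10 and Mrc1 were at 0 in both groups. Cell cycle genes summed to 429 and 669 CPM against 1578 and 550, a sum lower in the type 17 cells of WT and not in those of CD169-DTR. The median cell stood at 292 and 540 CPM against 420 and 757. In WT the highest of the other cells reached 9068, so few cells carried much of that sum. The part of these genes in the other differences was not tested.

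Among all 9554 genes held by at least 20 T and NK cells, other than the members, the 15 whose log-normalised level followed the members' summed level most closely over the 997 cells were led by Serpinb1a (Pearson r = 0.60), Il1r1 (0.60), Tmem176a (0.57), Aqp3 (0.56), Tmem176b (0.56) and Actn2 (0.54). These points share libraries and depth, and the values are a description. Serpinb1a stood at 222 CPM in WT cells with at least 2 members and at 14.0 in the other WT cells, and at 168 and 14.3 in CD169-DTR. Ly6g5b, Tcrg-C4, Ltb4r1, Slc6a13, F2r, Plxnd1, Igf1r, Ramp1 and Cxcr6 completed the list, with r from 0.45 down to 0.37.

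Between the libraries, 1 member stood apart. Il17a was at 37.4 CPM in WT T and NK cells (182 UMIs in 10 cells) and at 1.50 in CD169-DTR (3 UMIs in 2 cells), a ratio of 24.9 with an interval from 8.40 to 122 (log2 4.64, 3.07 to 6.93). At the summed level it was the only member of 8 at least 2-fold higher in WT, where 4.11% of 9933 genes were, and 0 members were at least 2-fold lower, against 1.14%. Other ways of taking the cells added to the members past 2-fold. Blk reached a log2 difference of 1.72 (0.58 to 3.11) and Tcrg-C2 1.06 (0.54 to 1.61) without the highest 10% of doublet scores in each library. With a gate on receptor and NK genes in place of clusters Blk reached 1.02 (0.04 to 2.15) and Il23r 1.16 (-0.99 to 4.35). Without the cell with most Blk UMIs in each library Blk reached 1.40 (0.24 to 2.80). Cd163l1 differed by -0.19 on the log2 scale (-0.55 to 0.17), Tcrg-C1 by 0.24 (-0.14 to 0.62), Trdv4 by 0.13 (-0.75 to 1.10), Blk by 0.80 (-0.09 to 1.80) and Il23r by 0.72 (-0.91 to 2.76), all with intervals that include 0 when all T and NK cells were summed. For Blk the interval lay above 0 in the 3 alternatives just given, and for Tcrg-C1 it did without the highest doublet scores (0.50, 0.10 to 0.92) and without its cell with most UMIs (0.44, 0.03 to 0.87). Cd163l1 had no stable direction, at 0.14 (-0.25 to 0.55) without the highest doublet scores. Trdc was 0.27 higher in WT (0.07 to 0.47) and Tcrg-C2 0.82 higher (0.32 to 1.36), past counting error but not past 2-fold. For Trdc the interval included 0 when the mixed sub-clusters were kept (0.17, -0.02 to 0.37). In the Calca Cd163l1 cluster alone, in which Trdc was found in 18 of 38 cells in WT and 8 of 14 in CD169-DTR, Trdc and Cd163l1 lay the other way, at -0.42 (-0.73 to -0.12) and -0.58 (-0.94 to -0.20).

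**Figure D4:**
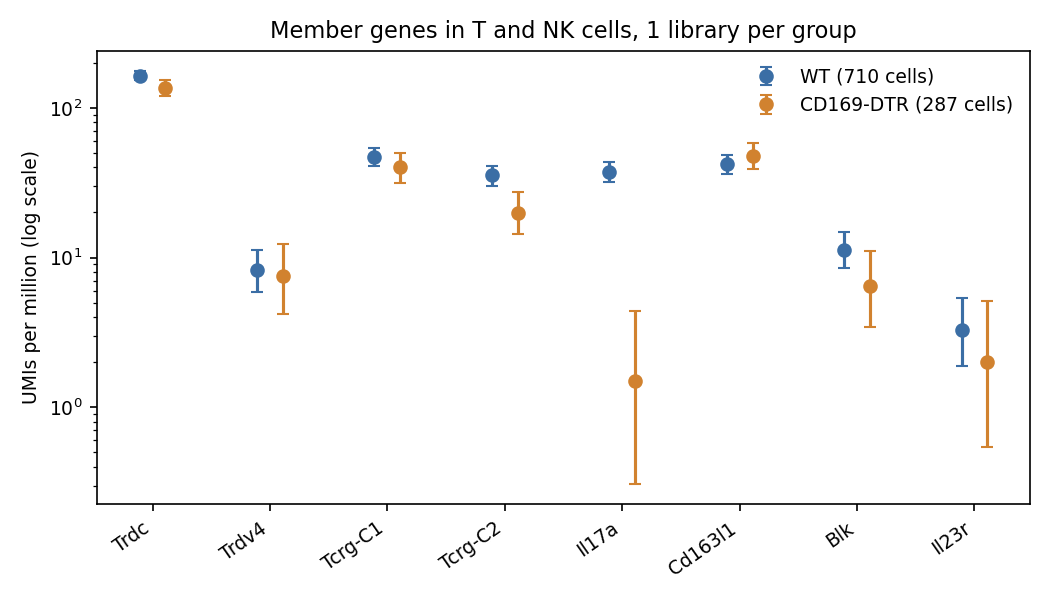
Level of each member in the T and NK cells of each library, in CPM on a log scale, with exact Poisson 95% intervals. Il17a is the member whose library values lie farthest apart, at 37.4 in WT and 1.50 in CD169-DTR.

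The Tcrg-C2 difference was seen in the CD8 T-like cluster, where it stood at 69.8 in WT and 30.6 in CD169-DTR (log2 1.19, 0.51 to 1.93). Tcrg-C1 lay the other way in that cluster, at 25.9 and 40.8 CPM (-0.65, -1.38 to 0.09), and counted together the pair stood at 95.7 and 71.4 (0.42, -0.05 to 0.92). Over all T and NK cells the pair was at 82.3 in WT and 59.9 in CD169-DTR (0.46, 0.16 to 0.77). In cells with Trdc, Tcrg-C and type 17, Tcrg-C2 stood at 261 and 229 CPM (0.19, -0.83 to 1.30). The share of T and NK cells with any member was 32.5% in WT and 20.9% in CD169-DTR, and at the common depth 27.5% (23.9 to 31.2) and 17.4% (13.05 to 22.5), intervals that did not overlap. The libraries drew their T and NK cells from the clusters in different amounts. In WT the NK-like cluster took 270 of the 710 cells and in CD169-DTR 78 of the 287, and Trdc was found in 37.4% and 29.5% of its cells. The Igfbp4 Lef1 cluster held 38 and 70 cells, of which 8 and 4 held Trdc. Over all T and NK cells, Trdc, counted whatever else a cell held, was found in 18.8% (15.7 to 22.1) and 13.6% (9.74 to 18.4) at the common depth. Cells with 2 or more members had overlapping intervals, 7.37% (5.41 to 9.77) and 6.44% (3.80 to 10.1).

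The Il17a difference remained when only the cells with Trdc, Tcrg-C and type 17 were compared. The 8 of 18 WT cells that held it carried 32, 27, 24, 23, 9, 5, 2 and 2 UMIs, and the 2 of 8 CD169-DTR cells carried 2 and 1. The ranges overlapped, since 10 WT cells held 0, but the 6 highest values were all WT. Summed, Il17a was at 1156 CPM in WT and 57.3 in CD169-DTR (log2 4.33, 2.75 to 6.63), while the share of holding cells, 44.4% (21.5 to 69.2) and 25.0% (3.19 to 65.1), did not differ beyond counting error. In 2 further WT cells of the same cluster, with Tcrg-C and no Trdc, Il17a reached 35 and 23 UMIs, the first of these with 4 UMIs of Cd4.

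The other members of these cells differed by less. Trdc differed by 0.21 on the log2 scale (-0.09 to 0.52), Tcrg-C1 by 0.42 (-0.07 to 0.94), Cd163l1 by 0.06 (-0.31 to 0.43) and Blk by 0.55 (-0.39 to 1.58), wide intervals that do not show the levels to be alike. Summed, the 7 members other than Il17a were 0.21 higher in WT (0.01 to 0.41). Of the type 17 list, 16 genes had at least 20 UMIs in these cells and 0 differed by 2-fold in either direction, where 6.88% of 1178 genes were at least 2-fold higher in WT and 4.41% lower. Csf2 was at 373 CPM in WT (40 UMIs in 4 cells) and 554 in CD169-DTR (29 UMIs in 2 cells), a log2 difference of -0.57 (-1.30 to 0.17). Cd69, an early activation gene kept in the homing list, was at 755 in WT (81 UMIs in 11 cells) and 134 in CD169-DTR (7 UMIs in 4 cells), a log2 difference of 2.50 (1.39 to 3.86). Of that list 6 genes had at least 20 UMIs in these cells, and 2 were at least 2-fold higher in WT and 0 lower. Their median log2 difference was -0.32. Depth did not differ much, with medians of 6192.5 and 5911 UMIs, and handling genes were level between the libraries, as given above. With 8 cells from 1 library, the genotype and the library cannot be told apart.

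Il1b, a cytokine that induces IL-17, was highest in granulocytes, at 17676 CPM in WT and 11820 in CD169-DTR. It stood at 980 and 1254 in dendritic cells, 897 and 764 in macrophages and 201 and 254 in microglia, against 12.7 and 6.49 in T and NK cells. In free RNA, taken from barcodes of 10 to 100 UMIs, it was at 610 and 476 CPM. A UMI of it was held by 5.63% and 4.53% of T and NK cells, against 98.2% and 97.4% of granulocytes at median depths of 2901 and 3629 UMIs. The microglia level lay below that of free RNA. Il23a was rare, with UMIs in at most 3.7% of the cells of granulocytes, dendritic cells, macrophages and microglia of either library. Il17ra, a part of the receptor for IL-17, was at 146 and 191 CPM in granulocytes and at 50.3 and 60.1 in microglia, and at 39.2 and 52.0 in free RNA. T and NK cells, at 37.8 and 39.4, did not stand above free RNA. Its partner Il17rc was at 28.5 and 28.4 CPM in non-immune cells and at 20.5 and 20.8 in unnamed clusters, against 1.84 and 2.54 in free RNA and 0.14 and 0.19 in microglia.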

How the data were processed

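Transcripts were counted by the authors with Cell Ranger (3.1.0 in the file headers, mm10 per the labels). The deposited matrices hold raw UMI counts of 31053 genes for every barcode, and the analysis started from these. Barcodes of 1000 or more UMIs were kept unless mitochondrial genes made up over 17% of them. Counts were log-normalised to 10000 UMIs per cell, reduced to 30 dimensions from 2000 variable genes, joined by 20 neighbours and clustered with leidenalg 0.10.2 (resolution 1), then again in T and NK cells (20 dimensions, resolution 0.5), without 42 member and gamma or delta receptor genes and without integrating the libraries, unlike the study. Names needed 3 detected markers. No doublets were removed in the main analysis, and a doublet score (own version of Scrublet) served an alternative.

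Levels are summed UMIs scaled to 1000000 (CPM), with exact Poisson intervals. Shares have Clopper-Pearson intervals and ratios exact conditional ones. Genes needed 20 UMIs over both sides, a side at 0 was set to 3 counts, and 2-fold was the call. With 1 library per genotype no test was made. Computation used Python 3.11.15, scipy 1.17.1 and scikit-learn 1.9.0, and was tested on simulated data. Named genes were the members, all genes of fixed lists and the 15 genes most correlated with the members. The members and lists were chosen with earlier results of these data known. Columns of other series numbered 0. A few genes of the lists are not reported here.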

Additional observations from a re-analysis of the deposited data

Results flagged for a closer look

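Barcodes outside the T and NK cells held members as well. In WT, 5 barcodes with Trdc, a Tcrg-C gene and a type 17 member lay outside the T and NK cells, 2 of them in dendritic cell clusters, 2 in the sub-cluster mixed with microglia and 1 in an unnamed cluster, and CD169-DTR held 0. Their depth, 13418 to 21644 UMIs, was above the WT T and NK cell median of 5673. The deepest of them held 33 Trdc, 34 Il17a and 38 H2-Aa UMIs, the last a gene of antigen-presenting cells. In all, WT barcodes outside the T and NK cells held 48 Il17a UMIs, of which that barcode held 34 and a barcode mixed with granulocytes 10, and CD169-DTR held 0. These UMIs were not counted in the main comparisons between libraries. The alternative that kept the mixed sub-clusters counted those in the mixed barcodes. The gate on receptor and NK genes was applied to all kept barcodes, and 632 of its 709 WT cells were T and NK cells of the clusters. Whether the barcodes held 2 cells was not tested.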

How the results depend on the processing

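No paired analysis was possible because each genotype had 1 library and no replicate. Il17a stayed higher in WT under all 10 alternatives (log2 4.33 to 6.37), and the share in the Calca Cd163l1 cluster stayed within its interval under all 12 (3.46% to 5.74%). Cells with 2 or more members fell to 4.36% in WT and 3.41% in CD169-DTR when 2 UMIs were required, and to 3.56% in CD169-DTR at a depth of 1750. The summed level of all 8 members (log2 0.41) moved to 0.66 without the highest 10% of doublet scores and to 0.56 with a gate on receptor and NK genes in place of clusters, and without Il17a (0.26) to 0.49 without those scores and 0.41 as a mean over cells. With 2 UMIs, 100% of Cd163l1 cells held Trdc. For single members, 17 of 128 shares and 2 of 70 levels left their intervals, and 5 of the 70 levels changed sign, all of members whose interval included 0: Cd163l1 (-0.19) went to 0.14 without the highest doublet scores, 0.11 as a mean over cells, 0.002 without its top cell and 0.06 in type 17 cells alone, and Trdv4 (0.13) to -0.14 in type 17 cells alone. Keeping the mixed sub-clusters and comparing type 17 cells alone were chosen after seeing the data. The cause of these moves was not tested. Il23r, Trdv4 and Il17a in CD169-DTR rest on 4, 15 and 3 UMIs, so small differences were not detectable at this depth.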
